A study of Mus musculus with 6 samples.

Results

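The cluster of mmu-miR-183, mmu-miR-96 and mmu-miR-182 consists of mouse microRNAs that are cut from one primary transcript; they are called miR-183, miR-96 and miR-182 below. Each was measured with 1 probe printed as 4 spots, so the cluster held 3 of the 334 mouse microRNA probes listed, chosen by the names in the array's probe descriptions. All 3 were among the 294 probes bright enough to be tested. RNA came from day 7 embryoid bodies, which are clumps of mouse embryonic stem cells left to differentiate. The cells, of strain 129S7/SvEv Brd-Hprt b-m2, carried human BRCA1: the control group (WT) its wild-type form, the MI group the form M1652I and the RQ group the form R1699Q. Every group, the control too, thus held a human BRCA1 gene. The sources used here do not give the state of the mouse Brca1 gene, the number of clones or whether replicates were separate cultures, so the p-values cover the spread between samples that may be technical repeats. Each group had 2 arrays, 6 in all. Cy3 labelled the RNA of the group and Cy5 a reference, named in the labels as wild-type embryoid bodies, with no dye swap.

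A microRNA silences messenger RNAs by pairing its seed, the bases at positions 2 to 8, with sites in them. The cluster is best known from sensory cells. Hair cells of the inner ear, photoreceptors and olfactory neurons express it strongly, and changes in the seed of miR-96 cause progressive hearing loss in mouse and human. It is also found in embryonic stem cells and is raised in many epithelial cancers. miR-182 has been reported to target BRCA1, the DNA repair gene altered in these cells.

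The mature sequences are shown because they decide which signals the probes could share; capitals mark the seed, and the sequences are those of RefSeq for GRCm38.p6.
miR-183-5p: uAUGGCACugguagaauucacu
miR-96-5p: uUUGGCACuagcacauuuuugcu
miR-182-5p: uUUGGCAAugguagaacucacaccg
Counted from 1 at the 5′ end, the seed of miR-96 differs from that of miR-182 by C8A and from that of miR-183 by U2A, and that of miR-182 differs from that of miR-183 by U2A and A8C. Laid side by side without gaps, miR-182 and miR-183 had the same base at 18 of 22 positions. For miR-96 the count was 12 of 23 against miR-182 and 13 of 22 against miR-183. No other mature microRNA among the 1738 in the table had the seed of miR-182 or of miR-183. The seed of miR-96 was shared by 1, miR-1271-5p, for which no mouse probe was found on the array.

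The deposited probes show which bases were captured; capitals mark the stretch that is complementary to the mature microRNA, and the lower-case end is a common stem.
miR-183: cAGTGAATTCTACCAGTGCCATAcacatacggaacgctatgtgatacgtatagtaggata
miR-96: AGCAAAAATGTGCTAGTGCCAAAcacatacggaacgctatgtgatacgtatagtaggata
miR-182: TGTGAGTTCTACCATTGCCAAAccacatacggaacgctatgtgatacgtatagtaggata
All 3 probes captured the 5p arm, over 22 bases for miR-183, 23 for miR-96 and 22 of 25 for miR-182. The last 33 of the 60 bases were the same in all 334 mouse probes. Over the other 27 bases, the probes of miR-182 and miR-183 were each other's nearest, 6 edits apart. The nearest probes outside the cluster were at 9 edits for miR-182 (miR-448 and miR-452) and miR-96 (miR-148a) and at 10 for miR-183. Whether RNA of one member bound the probe of another was not tested.

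In RefSeq the 3 hairpins lie on the minus strand of chromosome 6, in the order Mir183, Mir96, Mir182. Mir183 is at chr6:30169668-30169737, Mir96 at chr6:30169446-30169551 and Mir182 at chr6:30165918-30165992 (GRCm38.p6). The first 2 are 116 bases apart, Mir182 lies 3453 bases further on, and the whole span is 3820 bases. The span overlaps a gene for a long non-coding RNA, Mirc35hg, and the nearest protein-coding genes are Nrf1 and Ube2h.

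The 6 arrays shared 1 slide and 1 scan. Both WT arrays were in row 1 of that slide and all mutant arrays in row 2, so row and genotype cannot be told apart in a comparison with WT. Between 241 and 255 of the 334 probes were well above background in Cy3. The negative control spots were brighter on RQ arrays, with a mean net Cy3 signal (spot minus local background) of 93.05 and 102.8, while the remaining arrays had 43.79 to 59.44. The labelled tissue was checked against marker microRNAs. All 10 pluripotent stem cell markers on the array were well above background in Cy3 in every group, with a summed net signal of 52485 to 89035 in WT, 52649 to 66888 in MI and 71155 to 74371 in RQ. In the Cy5 reference the same markers summed to 180.5 to 273.6 over the 6 arrays. That channel thus did not show the stem cell signal of the WT arrays, and the ratios below serve only to compare groups. On the WT arrays the other marker lists (blood, neural, mesenchymal, muscle and heart) were brighter in Cy5 than in Cy3. Blood markers summed to 72860 to 73109 in Cy5 against 1058 to 1097 in Cy3, and neural markers to 12255 to 13000 against 1130 to 1197. The make-up of the reference was not tested.

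All 3 members were detected in the embryoid bodies. In Cy3 every one of the 72 spots, 12 on each of 6 arrays, was well above background, and none of the group differences between WT, MI and RQ passed the test. The scanner marked 6 of the 72 spots as outliers, and these were left out.

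miR-183, the first hairpin of the transcript, had a net Cy3 signal of 446.7 and 339.0 on the WT arrays. It had 281.5 and 340.0 on the MI arrays, and 493.4 and 485.5 on the RQ arrays. RQ was thus brightest in net signal and did not overlap with either other group, a gap whose share among all microRNAs was not counted. The median tested microRNA was also at 1.35 times its WT signal and 1.32 times its MI signal on the RQ arrays, where miR-183 was at 1.25 and 1.58 times. The negative control spots, whose signal is not subtracted here, were brighter on the RQ arrays too (93.05 and 102.8, against 59.44 and 43.84 on the WT arrays). In the reference channel its net signal was 19.0 to 27.3, a range that overlaps the 11.5 to 26.02 of the negative control spots, and 1 of 4 spots was well above background in Cy5 on MI replicate 1 and on RQ replicate 2. The denominator of its ratio therefore carried little signal.

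miR-96, the member whose seed changes are known from deafness, had a net Cy3 signal of 606.8 and 424.5 in WT. The values were 291.0 and 350.3 in MI and 502.3 and 510.0 in RQ. Both MI arrays were thus below all 4 others, and the RQ arrays lay between the WT arrays. MI was at 0.62 times and RQ at 0.98 times the WT signal, where the median tested microRNA was at 1.06 and 1.35 times. How many other microRNAs had such a gap in net signal was not counted. Its spots varied more than those of the other members, with a coefficient of variation of up to 26.1% among the spots of an array, against up to 11.8% for miR-183 and 7.77% for miR-182. Its net Cy5 signal was 41.0 to 53.5 and was well above background at every spot.

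miR-182, the member reported to target BRCA1, had a net Cy3 signal of 1155 and 603.0 in WT. The values were 431.8 and 562.5 in MI and 928.9 and 855.5 in RQ. The WT arrays were thus the least alike of the 3 pairs: replicate 1 was at 1.92 times replicate 2, against 1.21 times for the median tested microRNA, and the RQ arrays lay between them. Both MI arrays were below every other array in net signal, a gap whose share among all microRNAs was not counted. MI was at 0.57 times and RQ at 1.01 times the WT signal, where the median tested microRNA was at 1.06 and 1.35 times. The net Cy5 signal was 42.6 to 55.3, well above background at every spot. Over the 6 arrays its highest Cy3 signal was 2.68 times its lowest, and its highest Cy5 signal 1.30 times its lowest, as the plot of the single spots shows.

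**Figure D1:**
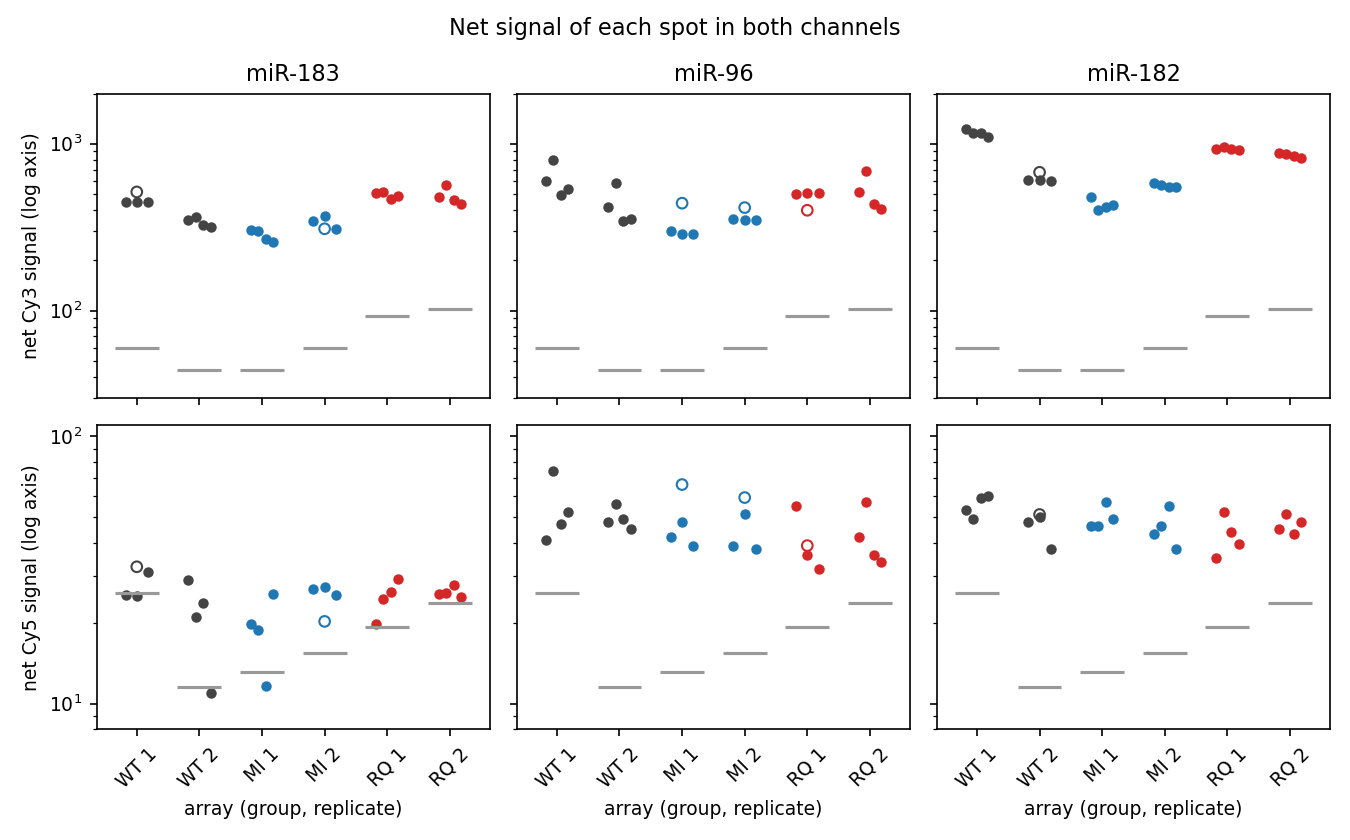
Net signal (mean spot intensity minus median local background, log axis) of each of the 4 spots per probe and array, for Cy3 (top row) and the Cy5 reference (bottom row), by array. Filled points were used, open points were marked as outliers by the scanner, and grey lines are the mean of the negative control spots on that array; Cy3 spots of all 3 members lie above the grey lines on every array, while some Cy5 spots of miR-183 reach or fall below them.

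The ratios of Cy3 to Cy5 after loess normalization, which removes the intensity-dependent difference between the dyes within each array, varied less than the net Cy3 signals. For miR-183 the log2 ratio was 2.26 and 2.09 in WT. It was 2.07 and 2.08 in MI and 2.34 and 2.16 in RQ. The MI arrays lay just below all others. For miR-96 it was 2.22 and 1.91 in WT, 1.69 and 1.88 in MI and 2.02 and 1.88 in RQ. Here MI replicate 2, at 1.884, exceeded RQ replicate 2, at 1.877, and both MI arrays were below both WT arrays. For miR-182 it was 3.02 and 2.45 in WT, 2.25 and 2.53 in MI and 2.63 and 2.43 in RQ. WT replicate 1 stood above the rest, and every pair of groups overlapped.

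**Figure D2:**
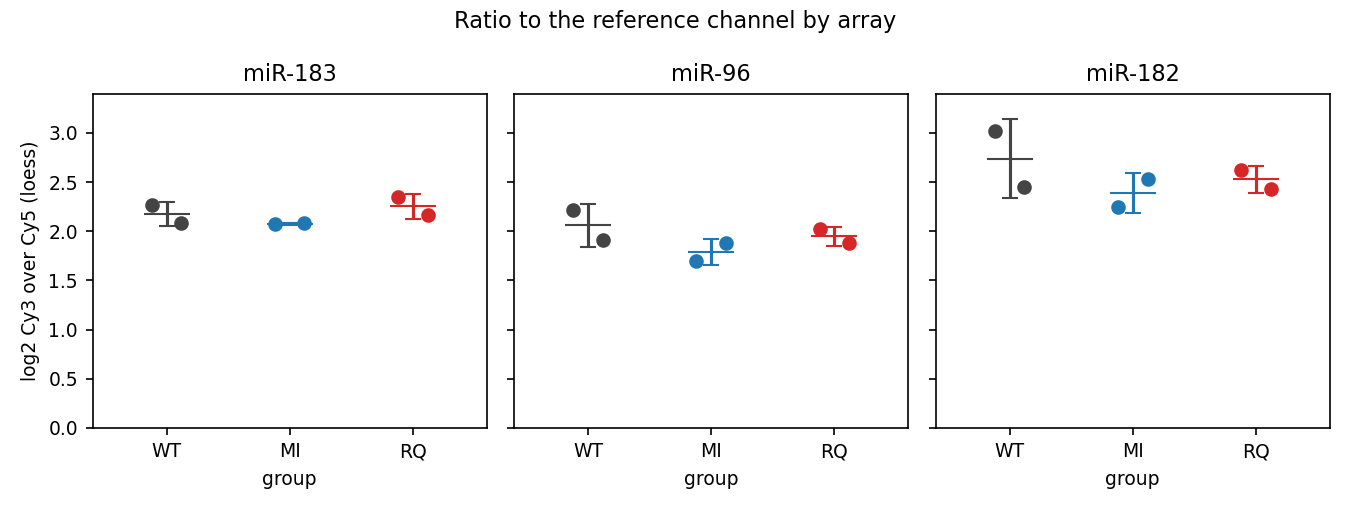
Log2 ratio of Cy3 over Cy5 after loess for each array (points, replicate 1 on the left and 2 on the right of each pair), with the group mean and SD (bars, n = 2 arrays), for WT, MI and RQ. WT replicate 1 is the highest array for miR-96 and miR-182, and RQ replicate 1 for miR-183.

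By group mean the order was WT, RQ, MI for miR-96 and miR-182 and RQ, WT, MI for miR-183. The means of miR-182 were 2.74 ± 0.40 in WT, 2.53 ± 0.14 in RQ and 2.39 ± 0.20 in MI (log2 ratio, SD, n = 2). Those of miR-96 were 2.06 ± 0.22 in WT, 1.95 ± 0.10 in RQ and 1.79 ± 0.13 in MI. Those of miR-183 were 2.25 ± 0.13 in RQ, 2.18 ± 0.13 in WT and 2.07 ± 0.0078 in MI. Neighbours in these orders differed by no more than the larger of their SDs, except RQ and MI for miR-96 (0.16 against 0.13). MI was the lowest group for all 3 members.

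In MI embryoid bodies, carrying M1652I, each member had a lower mean than in WT and none passed. The change was -0.35 ± 0.22 for miR-182 (log2, SE, n = 2 arrays per group; 95% interval -0.88 to 0.18; adjusted p = 0.279 in limma). It was -0.27 ± 0.15 for miR-96 (interval -0.64 to 0.10; limma adjusted p = 0.234) and -0.10 ± 0.12 for miR-183 (interval -0.40 to 0.20; limma adjusted p = 0.572). Among all microRNAs 15.6% were called in this comparison, 46 of 294 (9.18% higher and 6.46% lower), and the members accounted for 0 of them (limma; 0 of 3 also at an unadjusted p under 0.05, against 36.7% of all probes). The 46 calls came to 6 and 19 without MI replicates 1 and 2, 27 without either RQ array and 28 without WT replicate 1. With loess the lower ends of the intervals correspond to falls of 1.84-fold for miR-182, 1.56-fold for miR-96 and 1.32-fold for miR-183. The arrays of MI and WT did not overlap for miR-96 and miR-183, with MI lower; 68.4% of all tested probes had no overlap, 45.6% with MI higher and 22.8% with MI lower. Rises made up 58.7% of the calls with loess and between 28.1% and 52.5% under the 4 other scalings.

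The size of the MI difference depended on the scaling and on single arrays. With each array's ratios centred on their median in place of loess, it was -0.68 for miR-182 (unadjusted p = 0.0188, adjusted p = 0.0809 in limma), -0.48 for miR-96 (0.0118 and 0.0612) and -0.29 for miR-183 (0.0326 and 0.122). With the Cy3 channel alone, after quantile normalization gave all arrays the same distribution of values, it was -0.68, -0.48 and -0.21. With the scanner's own log ratio of processed signals it was -0.93, -0.63 and -0.15. Under neither was a member called after adjustment. All 3 members were lower in MI under each of the 4 other scalings, whereas the median of all microRNAs was at 0.11 with loess and between -0.05 and 0.08 with the others. Without WT replicate 1 the loess difference was -0.063 for miR-182, -0.12 for miR-96 and -0.012 for miR-183. Without WT replicate 2 it was -0.63, -0.43 and -0.19, with adjusted p = 0.0601, 0.0943 and 0.33 in limma, where the lone WT array is assumed to vary like the other groups. Without MI replicate 1, miR-182 was at -0.21 and miR-96 at -0.18.

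In RQ embryoid bodies, carrying R1699Q, the members had means on either side of those in WT, and none passed. miR-182 was at -0.21 ± 0.22 (log2, SE, n = 2 arrays per group; interval -0.74 to 0.32; adjusted p = 0.518 in limma). miR-96 was at -0.11 ± 0.15 (interval -0.48 to 0.25; limma adjusted p = 0.608) and miR-183 at 0.078 ± 0.12 (interval -0.23 to 0.38; limma adjusted p = 0.658). Of all microRNAs 21.4% were called in this comparison, 63 of 294 (7.48% higher and 13.9% lower), and 0 of the 3 members (limma; 0 of 3 at an unadjusted p under 0.05, against 37.4%). The 63 calls came to 5 without RQ replicate 1 and 40 without RQ replicate 2. The arrays of RQ and WT overlapped for every member, where 62.6% of all probes had no overlap, 33% with RQ higher and 29.6% with RQ lower. Rises made up 34.9% of the calls with loess and between 18.5% and 70.1% under the 4 other scalings. With loess the intervals reach a fall of 1.67-fold for miR-182 and a rise of 1.30-fold for miR-183. With the scanner's processed signals they were wider, -1.26 to 0.26 (log2) for miR-182 and -0.66 to 0.56 for miR-183. This comparison shares its WT arrays with that of MI.

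With Cy3 alone in place of the ratio, miR-96 was called lower in RQ, at -0.58 (adjusted p = 0.0276 in limma). Under this scaling 92 of the 294 tested probes were called, 17 of them higher and the rest lower. miR-182 was at -0.40 and miR-183 at -0.30 on that scale, not called, and the median of all microRNAs stood at -0.17. The call of miR-96 did not hold with the ratio under loess, with median centring (-0.16), with loess on bright probes (-0.09) or with the processed signals (-0.33). The sign of miR-183 turned with median centring (-0.046), the processed signals (-0.049) and Cy3 alone. Without WT replicate 1, miR-182 was at 0.077 and miR-96 at 0.042.

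**Figure D3:**
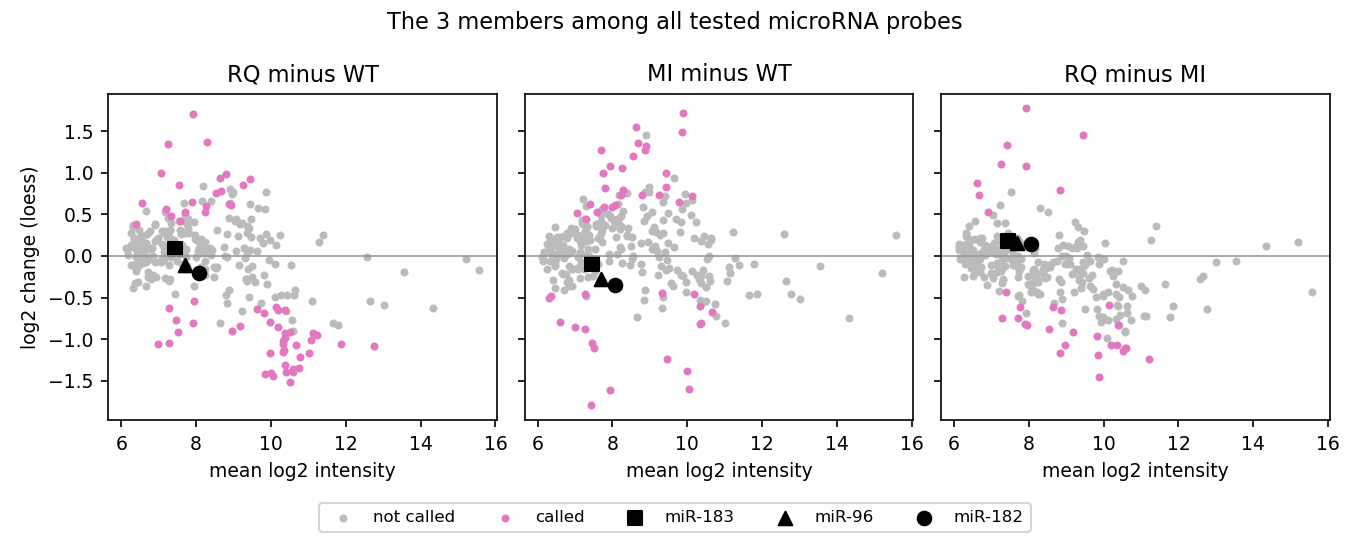
Log2 change after loess against the mean log2 intensity of both channels for the 294 tested microRNA probes in each comparison, with called probes (adjusted p under 0.05) in pink, other probes in grey and the 3 members in black. The members lie at mean intensities of 7.45 (miR-183), 7.70 (miR-96) and 8.06 (miR-182), among grey probes in all 3 comparisons.

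Between the mutants all 3 members had a higher mean in RQ than in MI, a comparison within 1 row of the slide. The difference was 0.14 ± 0.22 for miR-182 (log2, SE, n = 2 arrays per group; interval -0.39 to 0.67; adjusted p = 0.729 in limma), 0.16 ± 0.15 for miR-96 (interval -0.21 to 0.53; limma adjusted p = 0.529) and 0.18 ± 0.12 for miR-183 (interval -0.12 to 0.48; limma adjusted p = 0.404). Of all microRNAs 10.9% were called here (3.06% higher and 7.82% lower) and 0 of the members (limma; 0 of 3 at an unadjusted p under 0.05, against 26.5%). The 32 calls came to 0 or 1 without any one of the 4 mutant arrays. The arrays did not overlap for miR-183, with RQ higher; 65% of all probes had no overlap, 20.1% with RQ higher and 44.9% with RQ lower. Rises made up 28.1% of the calls with loess and between 22.6% and 61.3% under the 4 other scalings. The median microRNA stood at -0.10 with loess. With median centring the differences were 0.56, 0.32 and 0.25, adjusted p = 0.166 for miR-182 and 0.217 for the others in limma. With Cy3 alone miR-96 and miR-183 turned to -0.10 and -0.094, so the direction of these 2 depends on the scaling.

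**Figure D4:**
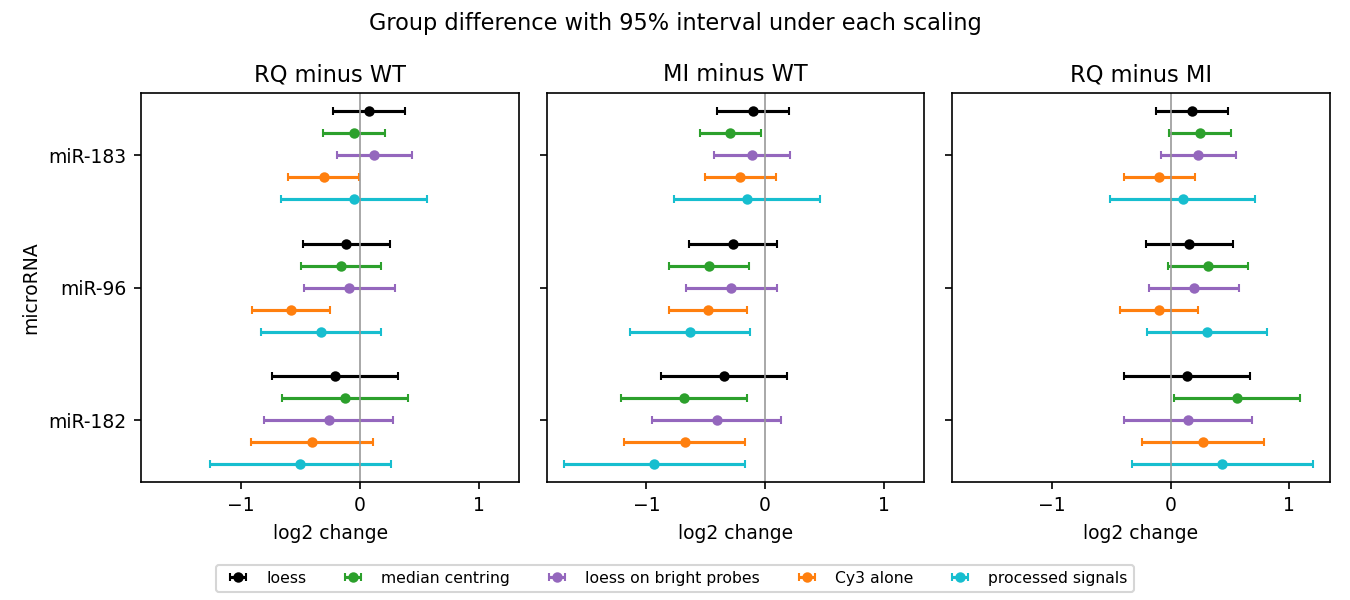
Difference between groups (log2) with its 95% interval for each member under 5 scalings, all fitted to the same 6 arrays: loess, median centring, loess on bright probes, Cy3 alone and the scanner's processed signals. In MI minus WT every point lies below 0; in RQ minus WT and RQ minus MI the points of miR-183 fall on both sides of 0.

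Differences between members within an array are free of anything that shifts all ratios of that array alike. The loess ratio of miR-182 minus that of miR-96 was 0.81 and 0.55 in WT, 0.55 and 0.65 in MI and 0.61 and 0.56 in RQ, so the groups overlapped. miR-182 minus miR-183 was 0.76 and 0.37 in WT, 0.18 and 0.45 in MI and 0.28 and 0.27 in RQ. miR-96 minus miR-183 was -0.05 and -0.18 in WT, -0.37 and -0.20 in MI and -0.33 and -0.29 in RQ. Both WT values lay above those of the mutants, but WT replicate 2, at -0.181, only just exceeded MI replicate 2, at -0.195. How many other pairs of probes part in this way was not counted, and the low Cy5 signal of miR-183 enters this difference. These are gaps between ratios and not amounts of one microRNA against another. The spread between the WT replicates was 0.57 for miR-182, a gap exceeded by 38 of 294 microRNAs, 0.31 for miR-96 (98 of 294) and 0.18 for miR-183 (161 of 294). The median gap over all microRNAs was 0.20.

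Likeness to other microRNAs was described by Pearson's correlation of the loess ratios over the 6 arrays, which share a slide and a reference, with 293 probes ranked for each member. The ratios most like those of miR-182 were miR-376c (r = 0.986), miR-96 (0.978) and miR-376a* (0.932), of which the miR-376 pair belongs to the imprinted Dlk1-Dio3 region. Those most like miR-96 were miR-182, miR-429 (0.949), an epithelial microRNA of the miR-200 family, and miR-31 (0.948). For miR-183 they were miR-28 (0.901), miR-363 (0.901) and miR-429 (0.881), while miR-96 was further down the ranking at 0.737 and miR-182 at 0.664. Like miR-182 and miR-96, miR-376c was highest on WT replicate 1, at 1.73, and lay between 0.96 and 1.22 on the rest. With median centring the correlations among the members were 0.961 (miR-182 and miR-183), 0.981 (miR-182 and miR-96) and 0.967 (miR-96 and miR-183), while with Cy3 alone they were 0.692, 0.795 and 0.964. Which pair correlated most thus depended on the scaling.

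Other microRNAs reported to target BRCA1 or other genes of DNA repair were set beside the cluster. Of 14 listed, 12 were on the array and tested. Beside them, 7.48% of all microRNAs rose and 13.9% fell in RQ minus WT, and 9.18% rose and 6.46% fell in MI minus WT. The shares in RQ minus MI were 3.06% and 7.82%. In RQ minus WT 1 rose and 7 fell (limma; median change -0.63 against 0.03 for all microRNAs). The rise was that of miR-155, a microRNA of activated immune cells (adjusted p = 0.00808 in limma); on both WT arrays its Cy3 signal was not well above background, so the size of the rise is not given. miR-210, a hypoxia-induced microRNA, changed by -0.92 ± 0.14 (log2, SE; limma adjusted p = 0.00991). The 4 other scalings called both as well. miR-103 at -1.40, miR-107 at -1.35 and miR-101a at -1.13 were each called under 2 of the 4, and with median centring the list had 1 rise and 1 fall and a median of 0.01. In MI minus WT 0 rose and 2 fell, miR-210 by 1.11 and miR-17-5p by 0.46, and the median was -0.21 against 0.11. All 4 other scalings called this fall of miR-210, while 1 called that of miR-17-5p, which was at -0.14 with median centring. In RQ minus MI 1 rose, miR-155 by 1.11 and under all 4 other scalings, and 2 fell, miR-103 and miR-107 (-1.11). Both were at -0.30 with median centring, where the list had 0 falls, and were called under 2 of the 4. miR-146, reported to target BRCA1 as miR-182 is, had no array on which its Cy3 signal was well above background. The calls of single list members were not refitted with an array left out.

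Sensory and retinal microRNAs outside the cluster included 3 that rose in both mutants. Of 9 listed, 8 were on the array and 7 tested. Beside them, 9.18% of all microRNAs rose and 6.46% fell in MI minus WT, and 7.48% rose and 13.9% fell in RQ minus WT. The shares in RQ minus MI were 3.06% and 7.82%. In MI minus WT 3 rose and 0 fell (median 0.43 against 0.11 for all microRNAs): miR-7 by 1.56 ± 0.14 (log2, SE; adjusted p = 0.00375 in limma), miR-181a by 1.28 ± 0.12 (limma adjusted p = 0.00375) and miR-181b by 1.06 ± 0.13 (limma adjusted p = 0.00599), each called under all 4 other scalings. In RQ minus WT the same 3 rose by 0.94, 0.62 and 0.60, while miR-125b fell by 1.39; the rises were called under 2 or 3 of the 4 other scalings and 0 of them with Cy3 alone, and the fall of miR-125b was -0.19 with median centring. miR-124a, the leading neuronal microRNA, was at -0.13 in MI and -0.54 in RQ, not called. In RQ minus MI 0 rose and 2 fell, miR-181a by 0.65 and miR-7 by 0.62. With median centring these were at -0.20 and -0.15 and the list had 1 rise and 0 falls, and miR-7 was called under 1 of the 4 other scalings. On no array did miR-204 or miR-211, known from the eye, have a Cy3 signal well above background.

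Among 7 epithelial microRNAs, all tested, miR-200a fell in MI by 1.59 ± 0.18 (log2, SE; adjusted p = 0.00464 in limma) and in RQ by 1.44 ± 0.18 (limma adjusted p = 0.00808). All 4 other scalings called both falls, but that in RQ was -0.46 with median centring and -0.92 with Cy3 alone. miR-205 rose in RQ by 0.61 ± 0.13 (limma adjusted p = 0.0224), but was at -0.03 with Cy3 alone. The other 6 in MI and the other 5 in RQ were not called, and the medians were -0.27 in MI and -0.069 in RQ. Of all microRNAs 9.18% rose and 6.46% fell in MI, and 7.48% rose and 13.9% fell in RQ. The counts of this list depended on the scaling. In MI 4 fell with the processed signals (median -1.10), 3 with Cy3 alone and 3 with median centring, and in RQ 4 fell with Cy3 alone (median -0.49). In RQ minus MI 0 of 7 were called (limma), beside 10.9% of all microRNAs. With median centring 1 of the 7 rose.

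Of the pluripotent stem cell markers 3 of 10 fell in MI and 3 of 10 in RQ, with medians of -0.27 and -0.35, where 6.46% and 13.9% of all microRNAs fell. The MI count was 3 under each of the 4 other scalings, and the RQ count was 1 with median centring and 1 with Cy3 alone. The falls in MI were miR-302 (-1.79), miR-302d (-1.61) and miR-367 (-0.79), and those in RQ miR-294 (-1.51), miR-295 (-1.16) and miR-302d (-0.54). All 4 other scalings called the falls in MI and that of miR-302d in RQ. In RQ miR-294 was called under 2 of them, at -0.36 with median centring and -0.26 with Cy3 alone, and miR-295 under 1. In RQ minus MI miR-302, miR-302d and miR-367 rose and miR-294 fell, where 3.06% of all microRNAs rose and 7.82% fell. That fall of miR-294 was -1.14 with loess, but -0.30 with median centring and -0.01 with Cy3 alone. Under the 4 other scalings 2 or 3 of this list rose there and 0 or 1 fell. Of 11 markers of fibroblasts and mesenchymal cells, 1 rose in MI and 3 fell in RQ; with Cy3 alone 2 fell in MI and 6 in RQ, and with median centring 1 fell in MI while 1 rose and 1 fell in RQ. Of 7 neural markers 0 were called in MI and 1 rose in RQ, and of 6 blood markers 0 were called in MI while 1 rose and 1 fell in RQ (limma, as above). Beside these short lists, 9.18% of all microRNAs rose and 6.46% fell in MI, and 7.48% rose and 13.9% fell in RQ. For blood in RQ there were 3 rises and 0 falls with median centring and 0 calls with Cy3 alone, and for neural markers 2 rises with median centring. Of 5 muscle and heart markers 1 rose and 1 fell in MI and 2 fell in RQ; with median centring 1 fell in MI while 1 rose and 1 fell in RQ. The summed net Cy3 signal of the muscle and heart list was 1363 to 1409 in WT, 2003 to 2867 in MI and 2542 to 3379 in RQ, and miR-208 was not well above background on any array. These sums are not normalized, and the net Cy3 signal of the median tested microRNA was at 1.06 times WT in MI and 1.35 times in RQ. The part of any of these cell types in the levels of the cluster was not tested, and in such bulk samples fewer cells of a type and less RNA per cell cannot be told apart.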

How the data were processed

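Agilent Feature Extraction 9.5.1.1 produced the scanner files, per the file headers. The deposited columns used are the mean and the median local background intensity of each spot in either dye, on a linear scale. The deposited log10 ratio of a spot is of processed Cy5 to processed Cy3 signal, per the file headers, and differed from one recomputed from those signals by up to 0.0779; the series' deposited value table equalled this with the sign turned (largest difference 0). How the authors processed the signals beyond this is not stated in the headers.

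Background was corrected by normexp (offset 50) and dye bias by loess on each array separately, giving weight 0 to control and outlier spots (limma 3.58.1, R 4.3.3). Outlier spots were then dropped and the log2 ratios of Cy3 to Cy5 averaged over the spots of a probe. Testing required that more than 0.5 of a probe's spots be well above background in one dye or the other, on 2 or more arrays. One limma fit held all 6 arrays (3 residual and 2.99 prior degrees of freedom). A probe was called at a Benjamini-Hochberg adjusted p under 0.05, taken over all 294. Net signal is mean spot minus median background intensity. The number of arrays limits the precision. The fit alone was also run on simulated log2 ratios with known changes. These were drawn without background correction, loess or dye signals, so that run does not bear on those steps.

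The members, the 3 pathway lists and the 5 marker lists were chosen with earlier results of these data known. Named by rule were the members, the 3 probes most like each and the nearest probes by sequence. So were up to 4 called members of each pathway list with the largest change. Others were named after their values were seen: miR-210, miR-17-5p, miR-146, miR-124a, miR-204, miR-211, miR-208 and the called stem cell markers. Sequences came from the deposited files and from RefSeq tables of GRCm38.p6, in which all 3 members matched. The alternatives were 4 other scalings, the deposited value table, another offset, other filters and treatments of spots, the replicate block, 2 groups at a time and each array left out. The Cy3-alone scaling was the normexp-corrected Cy3 signal on a log2 scale after quantile normalization between arrays.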

Additional observations from a re-analysis of the deposited data

How the results depend on the processing

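Over 19 alternatives, 1 of which (control probes weighted in loess) was chosen after seeing the data, the 9 differences of the members gave 171 values. Of these, 54 equalled the reported value by construction (other filters, the replicate block, an array or group outside the comparison), and the deposited value table repeated the processed signals. Of the other 108, 97 kept direction and side of the threshold, 10 turned sign and 1 passed, miR-96 in RQ minus WT with Cy3 alone (-0.58). That scaling called 92 of the 294 tested probes in this comparison. The sign turned for miR-183 in RQ minus WT with median centring (-0.046), Cy3 alone (-0.30), and the processed signals and the deposited value table (-0.049, the same values). It turned in RQ minus MI with Cy3 alone for miR-183 (-0.094) and miR-96 (-0.10). The cause was not tested.

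Leaving out 1 array at a time, RQ minus WT ranged from -0.49 to 0.077 for miR-182, -0.013 to 0.17 for miR-183 and -0.27 to 0.042 for miR-96. MI minus WT ranged from -0.63 to -0.063, -0.19 to -0.012 and -0.43 to -0.12, and RQ minus MI from -0.00097 to 0.28, 0.09 to 0.27 and 0.06 to 0.25. All calls numbered 5 to 60 in RQ minus WT, 6 to 63 in MI minus WT and 0 to 48 in RQ minus MI with an array fewer, against 63, 46 and 32. The counts were 5 without RQ replicate 1 and 40 without RQ replicate 2 in RQ minus WT. In MI minus WT they were 28 without WT replicate 1, 6 and 19 without MI replicates 1 and 2, and 27 without either RQ array. In RQ minus MI they were 0 or 1 without any one of its own 4 arrays. MI minus WT had 27 calls with 2 groups alone. RQ minus MI had 53 with Cy3 alone, 14 with outlier spots kept and 19 with control probes weighted. With the replicate block the calls numbered 59, 39 and 38 and the members' differences kept their values (miR-182 at -0.21 in RQ minus WT, adjusted p = 0.532 in limma), with no call changed among the members. Deviations of same-numbered arrays correlated at 0.18 (WT and MI), 0.12 (WT and RQ) and 0.041 (MI and RQ), so the numbers were not taken as pairs. The share of rises among calls was 34.9%, 58.7% and 28.1%, and with median centring 70.1%, 44.7% and 61.3%. The low Cy5 signal of miR-183 limits its ratio.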
